A study of Mus musculus with 6 samples.

Results

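The 10 genes described here encode laminin chains and the proteins that tie laminin to the rest of the basement membrane. They are the α chains Lama2, Lama4 and Lama5, the β chains Lamb1 and Lamb2, the γ chain Lamc1, the nidogens Nid1 and Nid2, and the heparan sulfate proteoglycans Hspg2 and Agrn. They were taken by name from the expression table, where all 10 had a RefSeq row among 23473 RefSeq rows. The table came from bulk RNA-seq of tumor endothelial cells (TECs) isolated from subcutaneous tumors of Lewis lung carcinoma (LLC), a mouse lung cancer cell line, in C57BL/6 mice. The question was which genes differ in TECs when Notch signaling is switched on in endothelium. There were 3 Ctrl libraries, labelled wild type, and 3 NICeCA libraries, each from mice labelled 8 weeks old. NICeCA mice carry Cdh5-Cre-ERT2 and a Rosa26 cassette that releases the Notch1 intracellular domain (NIC) after removal of a stop, so that tamoxifen turns the active receptor fragment on in Cdh5-expressing cells only. Whether the Ctrl mice carried either transgene or received tamoxifen is not stated in the sources used here. The labels have the tumors taken on more than 1 day while the methods name a single day, and the day of each library is not stated, so day and group cannot be told apart. Cells were collected on CD31-coated beads, which also hold any other cell that carries or sticks to CD31, and the labels give a purity over 90%. The methods speak of pairs of NICeCA and control mice, which reads as 1 mouse a library, and the p-values measure the spread between these 6 libraries.

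Laminins are secreted as trimers of 1 α, 1 β and 1 γ chain, assembled in the endoplasmic reticulum, and polymerize on the cell surface into the sheet on which a basement membrane is built. The α chain carries the main sites for integrins and dystroglycan. In blood vessels the α4 chain is present in nearly all endothelial basement membranes, while the α5 chain varies with vessel type and maturity and is the stronger integrin ligand. Nidogens bind the γ1 chain and link it to the collagen IV network, and perlecan (Hspg2) and agrin (Agrn) carry heparan sulfate chains and connect laminin to growth factors and to cell surface receptors.

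The libraries held between 27793301 and 30769916 reads on RefSeq rows. The 10 genes took 0.207 to 0.252% of those reads in Ctrl libraries and 0.150 to 0.213% in NICeCA libraries. Transcripts of several cell types were in every library. The macrophage gene Lyz2 stood at 2611 to 5555 RPKM (reads scaled to model length and library size), far above Cdh5 at 30.9 to 96.5 RPKM. The mean log2(RPKM + 1) of 12 endothelial markers was 5.26, 3.97 and 4.32 in Ctrl replicates 1, 2 and 3 and 4.92, 5.37 and 5.27 in NICeCA replicates 1, 2 and 3. Ctrl replicate 1 thus lay inside the NICeCA range, and the other Ctrl libraries lay below it. Summed levels of 12 fibroblast markers ran from 412 to 674 RPKM in Ctrl and from 200 to 387 RPKM in NICeCA. Col3a1 alone gave 270 to 454 and 103 to 226 RPKM of these. Of 10 tested, 4 were called lower and Postn higher, while Col1a1, Col1a2 and Mfap5 had positive log2 fold changes without a call. The sums of 12 mural cell markers ran from 65.7 to 111 and from 139 to 229 RPKM, with 3 of 10 tested called higher. Mcam, not called, gave 26.7 to 62.9 and 51.0 to 77.1 RPKM of them. Sums of 9 neutrophil markers ran from 126 to 283 and from 630 to 1690 RPKM, with 7 of 8 tested called higher. Those of 10 LLC or epithelial markers were 18.2, 31.8 and 30.3 RPKM in Ctrl and 12.8, 12.4 and 19.8 RPKM in NICeCA, where 3 were tested and Krt18 was called lower (4.19 ± 0.704 against 1.71 ± 0.911 RPKM, SD, n = 3 each). Those of 9 macrophage markers ran from 6950 to 9926 RPKM and from 5370 to 9195 RPKM, with Cd68, Cd14 and Fcgr1 called higher. Of the 9, 5 had negative log2 fold changes, among them Lyz2 at -0.17, and none was called lower. The rRNA precursor Rn45s took 3.86, 6.40 and 1.87% of RefSeq reads in Ctrl and 0.825, 1.06 and 1.92% in NICeCA. The part of these markers and of Rn45s in the results was not tested. No marker list had its defining genes at 0 in all libraries. Fewer cells of a type and less RNA per cell cannot be told apart in bulk samples. Notch1, the gene from which NIC derives, gave 14.3, 8.19 and 13.8 RPKM in Ctrl and 12.3, 13.6 and 12.6 RPKM in NICeCA, with an adjusted p of 0.71 in limma, so it did not tell the groups apart.

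The genes lie on 8 chromosomes and have long, many-exon models. In GRCm38 coordinates the α chains lie at chr10:26981285-27616942 (Lama2, minus strand), chr10:38965515-39110188 (Lama4, plus strand) and chr2:180176373-180225859 (Lama5, minus strand). The β chains lie at chr12:31265294-31329639 (Lamb1, plus strand) and chr9:108479862-108490530 (Lamb2, plus strand), and Lamc1 at chr1:153218922-153332786 on the minus strand. The nidogens lie at chr13:13437602-13512275 (Nid1) and chr14:19751257-19811787 (Nid2), both on the plus strand. Hspg2 lies at chr4:137468803-137570630 on the plus strand and Agrn at chr4:156165290-156197488 on the minus strand. The exon models run from 4884 bases for Nid2 to 14177 bases for Hspg2, against a median of 2733 bases over the 12320 genes tested. The longest of the set belong to Hspg2, whose nearest GENCODE transcript has 97 exons, and to Lama5, with 79.

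Promoter windows from RefSeq (GRCm38.p6, 300 bases around the annotated start, most of them upstream) were matched for 7 of the 10 genes, all but Lama4, Lamc1 and Nid2. The windows of Hspg2 and Lama5 are shown because the levels of these genes followed each other most closely. The Hspg2 window is chr4:137468553-137468852 on the plus strand, and capitals mark a match to GTGGGAA, the core of the site bound by RBPJ, the DNA-binding partner of NIC. The Lama5 window is chr2:180225810-180226109 on the minus strand and holds no match. Both are written 5′ to 3′.
Hspg2: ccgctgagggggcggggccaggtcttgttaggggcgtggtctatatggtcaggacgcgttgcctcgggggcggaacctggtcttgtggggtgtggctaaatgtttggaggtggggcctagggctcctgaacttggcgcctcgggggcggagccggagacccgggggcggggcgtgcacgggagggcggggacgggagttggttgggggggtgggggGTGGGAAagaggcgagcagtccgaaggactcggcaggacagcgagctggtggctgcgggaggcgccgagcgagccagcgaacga
Lama5: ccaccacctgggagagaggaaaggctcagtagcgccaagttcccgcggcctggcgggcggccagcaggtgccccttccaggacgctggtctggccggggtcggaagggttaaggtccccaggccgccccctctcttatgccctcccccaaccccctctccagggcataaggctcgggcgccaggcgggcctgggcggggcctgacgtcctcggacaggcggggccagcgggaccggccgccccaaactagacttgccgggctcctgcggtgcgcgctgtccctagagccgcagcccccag
The Hspg2 match begins 34 bases before the RefSeq start at chr4:137468803. GENCODE starts the gene further upstream, at chr4:137468769, where the match begins. GTGGGAA, searched on both strands, was found in 6.38% of 32851 promoter windows and for 7.245% of 27025 genes. Hspg2 was the 1 gene among the 7 to hold it. CACGTG, an E-box, is a palindrome and was found in 7.15% of windows, for 8.093% of genes and in none of these genes. Hspg2 and Lama5 have GC-rich windows (70.3 and 72.7% G or C, against a median of 52.7% over all windows). A match is a string of letters and says nothing here about binding.

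In Ctrl TECs the most abundant transcript of the set per unit of length was Hspg2, with a mean of 50.4 RPKM, above Nid1 (38.3), Lamb1 (35.7) and Lamc1 (27.4). Lama5 (16.0), Lamb2 (15.1), Agrn (12.4), Lama4 (9.75) and Nid2 (9.07) followed. Lama2 had a mean of 0.193 RPKM. The ranges of neighbours in this order did not overlap between Hspg2 and Nid1, between Lamb1 and Lamc1, between Lamc1 and Lama5, and between Nid2 and Lama2. They did overlap between Nid1 and Lamb1 and all the way from Lama5 to Nid2. In NICeCA the order was another. Nid1 and Hspg2 both had a mean of 31.0 RPKM, Lamc1 28.9 and Lamb1 26.9, with overlapping ranges. Lama4 (13.6), Lamb2 (13.3) and Nid2 (13.2) formed the next tier, and Lama5 (9.75) and Agrn (7.26) lay below them. The ranges of Nid2 and Lama5, neighbours in that order, did not overlap, while the lowest Lama4 value, 10.8 RPKM, was under the highest Lama5 value, 11.3 RPKM.

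**Figure D1:**
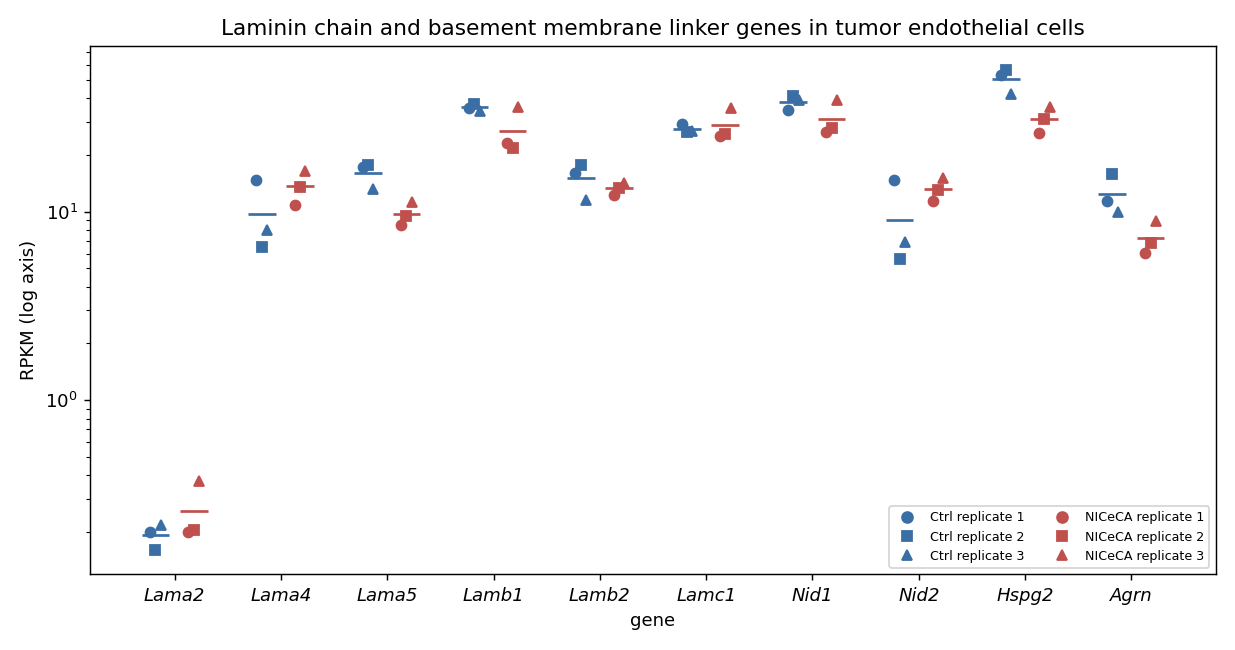
RPKM on a log axis of the 10 genes in each of the 6 libraries, ordered by role, with 1 marker shape per replicate number and horizontal bars for the group means. The Ctrl and NICeCA points of Lama5, Hspg2 and Agrn do not overlap, with Ctrl higher, while those of Lama4 and Nid2 spread most in Ctrl.

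With endothelial Notch activation, transcripts of perlecan and of the laminin α5 chain fell. With the dependence of fold change on gene length taken off, their log2 fold changes were -0.25 and -0.29 in place of -0.69 and -0.66 and neither was called, and 9 of 16 alternatives ended each call. The laminin α4 chain and nidogen-2 had higher means, but the spread between Ctrl libraries was too large for a call. Of the 9 genes that passed the filter of a mean of 1 RPKM, Lama5 and Hspg2 were called lower and none higher in limma at an adjusted p under 0.05 (Benjamini-Hochberg over 12320 genes). Over all genes tested, 13.6% were called, 7.68% lower and 5.88% higher. That split of 946 lower and 725 higher depended on scaling, with 702 lower and 966 higher after trimmed mean scaling and 319 and 434 after quantile normalization. At an unadjusted p under 0.05 in limma, Agrn made it 3 of 9 lower and none was higher, against 21.1% of all genes lower and 14.4% higher. The Ctrl and NICeCA values did not overlap for 3 of the 9, Lama5, Hspg2 and Agrn, all lower in NICeCA, against 40.9% of all genes, 24.4% lower and 16.5% higher. The shares among 9 genes rest on few genes. The median log2 fold change was -0.31 over the 9 genes and -0.05 over all genes tested.

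The α5 chain anchors the basement membrane of mature vessels to integrins and to Bcam. Lama5 read 17.2, 17.6 and 13.3 RPKM in Ctrl and 8.45, 9.47 and 11.3 RPKM in NICeCA. No library of one group reached the other, and replicate 3 was the lowest in Ctrl and the highest in NICeCA. The mean fell from 16.0 ± 2.38 to 9.75 ± 1.45 RPKM (SD, n = 3 each), a log2 fold change of -0.66 with an SE of 0.16 and an adjusted p of 0.038 in limma.

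The α4 chain is the laminin α chain that endothelial cells make most widely. Lama4 read 14.7, 6.53 and 8.03 RPKM in Ctrl and 10.8, 13.5 and 16.5 RPKM in NICeCA. Ctrl replicate 1 lay between the NICeCA values, and the other Ctrl libraries lay below all of them. The means were 9.75 ± 4.35 and 13.6 ± 2.83 RPKM (SD, n = 3 each), and the log2 fold change of 0.50 (SE 0.27) had an adjusted p of 0.229 in limma and an interval at 95% from -0.14 to 1.13.

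The α2 chain belongs to the basement membranes of muscle and Schwann cells. Lama2 read 0.200, 0.160 and 0.219 RPKM in Ctrl and 0.200, 0.204 and 0.373 RPKM in NICeCA. These values rest on 62 to 135 reads a library and lay under the filter, so Lama2 was not among the genes tested. They overlapped, with NICeCA replicate 3 highest. Summed markers of skeletal muscle were 9.42 to 30.1 RPKM and those of Schwann cells 32.7 to 41.4 RPKM over the 6 libraries.

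The β1 chain pairs with either α chain in endothelial laminins. Lamb1 read 35.6, 37.3 and 34.2 RPKM in Ctrl and 23.2, 21.9 and 35.7 RPKM in NICeCA. NICeCA replicate 3 was at the Ctrl level, and the other NICeCA libraries were below every Ctrl library. The log2 fold change was -0.43 (SE 0.19, n = 3 each) with an adjusted p of 0.145 in limma, and without NICeCA replicate 3 it was -0.64 with an adjusted p of 0.037.

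The β2 chain is the alternative β chain, prominent at neuromuscular synapses, in the glomerulus and in vessel walls. Lamb2 read 16.1, 17.7 and 11.5 RPKM in Ctrl and 12.3, 13.4 and 14.3 RPKM in NICeCA. All 3 NICeCA values lay within the Ctrl range. The log2 fold change was -0.15 (SE 0.17, n = 3 each), with an adjusted p of 0.546 in limma and an interval at 95% from -0.53 to 0.23.

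The γ1 chain is common to most laminins and carries the nidogen site. Lamc1 read 29.3, 26.3 and 26.6 RPKM in Ctrl and 25.2, 25.9 and 35.6 RPKM in NICeCA. The groups overlapped, with NICeCA replicate 3 alone above all of Ctrl. The log2 fold change was 0.06 (SE 0.16, n = 3 each), with an adjusted p of 0.815 in limma and an interval at 95% from -0.30 to 0.42, so differences within that interval cannot be told apart from none.

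Nidogen-1 is the more widely expressed nidogen. Nid1 read 34.7, 41.1 and 39.1 RPKM in Ctrl and 26.3, 27.8 and 38.9 RPKM in NICeCA. As for Lamb1, NICeCA replicate 3 was at the Ctrl level and the other NICeCA libraries were below it. The log2 fold change was -0.31 (SE 0.17, n = 3 each) with an adjusted p of 0.220 in limma.

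Nidogen-2 is a linker concentrated in endothelial basement membranes. Nid2 read 14.7, 5.58 and 6.92 RPKM in Ctrl and 11.4, 13.0 and 15.1 RPKM in NICeCA, the same arrangement as for Lama4. The means were 9.07 ± 4.92 and 13.2 ± 1.86 RPKM (SD, n = 3 each), with a log2 fold change of 0.59 (SE 0.30) and an adjusted p of 0.197 in limma. Without Ctrl replicate 1 the log2 fold change was 0.96 with an adjusted p of 0.033 for Nid2 and 0.81 with an adjusted p of 0.051 for Lama4.

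Perlecan is a very large proteoglycan that binds laminin, nidogen and collagen IV and holds growth factors on its heparan sulfate chains. Hspg2 read 53.0, 56.4 and 41.9 RPKM in Ctrl and 26.1, 31.0 and 35.7 RPKM in NICeCA. Every Ctrl library was above every NICeCA library, with the closest values in the replicates numbered 3. The mean fell from 50.4 ± 7.60 to 31.0 ± 4.78 RPKM (SD, n = 3 each), a log2 fold change of -0.69 with an SE of 0.17 and an adjusted p of 0.040 in limma. Ctrl replicate 1, a single library, had 53.0 RPKM at an endothelial marker level within the NICeCA range. Its summed fibroblast markers, 412 RPKM, were above those of every NICeCA library. The part of these levels in Hspg2 was not tested beyond the covariate fit below.

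The calls of Hspg2 and Lama5 sat near the threshold. Leaving out Ctrl replicate 1, Ctrl replicate 2, NICeCA replicate 1 or NICeCA replicate 2 ended them, with adjusted p values in limma of 0.069, 0.091, 0.136 and 0.149 for Lama5 and 0.071, 0.095, 0.137 and 0.148 for Hspg2, and log2 fold changes between -0.69 and -0.57.

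Agrin, the other heparan sulfate proteoglycan, links laminin to dystroglycan and Lrp4. Agrn read 11.4, 15.9 and 9.98 RPKM in Ctrl and 6.05, 6.85 and 8.88 RPKM in NICeCA. The groups did not overlap, but Ctrl replicate 2 stood well above the rest. Its means were 12.4 ± 3.07 and 7.26 ± 1.46 RPKM (SD, n = 3 each), and its log2 fold change of -0.69 had a larger SE, 0.20, and an adjusted p of 0.053 in limma, just outside the threshold. Without Ctrl replicate 3 the adjusted p was 0.045 and without NICeCA replicate 3 it was 0.047, so the call turned on which library was included.

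The values of Lama4 and Nid2 moved with the endothelial marker level. Hspg2 read 53.0, 56.4 and 41.9 RPKM in Ctrl replicates 1, 2 and 3, at marker levels of 5.26, 3.97 and 4.32. With the endothelial marker level as a covariate the log2 fold change was -0.06 for Lama4 and -0.04 for Nid2. It was -0.74 for Lama5, -0.75 for Hspg2 and -0.60 for Agrn. No gene of the 12320 was called in that fit by limma, where 1247 were higher and 1131 lower at an unadjusted p under 0.05. All 12 endothelial markers had positive log2 fold changes, so marker level and group cannot be fully told apart. The part of the endothelial marker level in these differences was not tested beyond this fit.

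**Figure D2:**
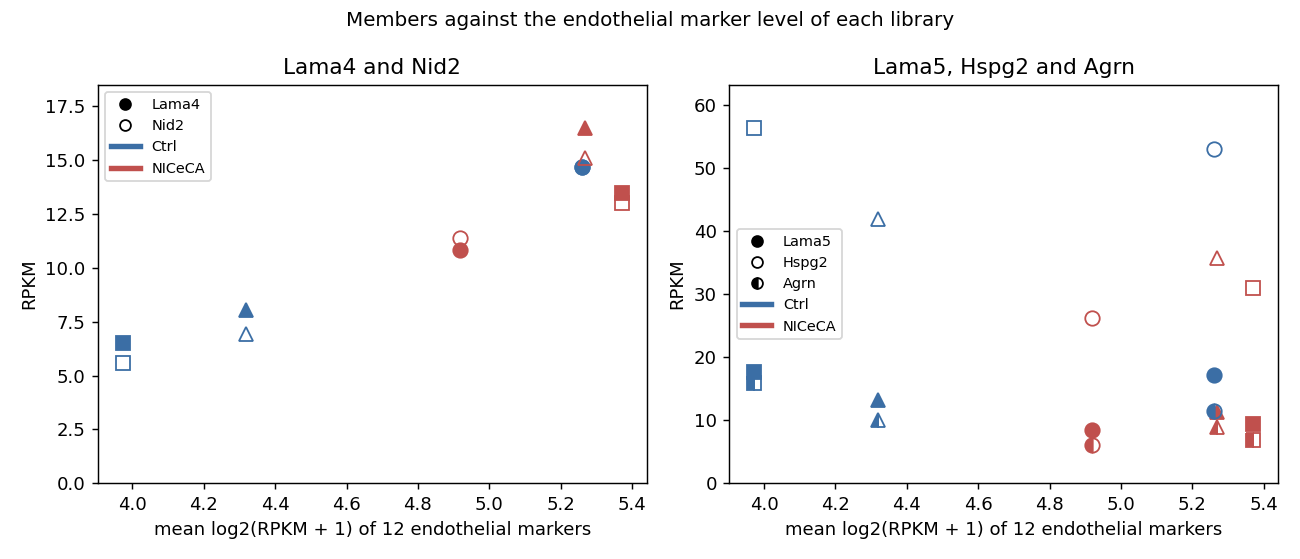
RPKM of Lama4 and Nid2 (left) and of Lama5, Hspg2 and Agrn (right) against the mean log2(RPKM + 1) of 12 endothelial markers, 1 point per gene and library, with the replicate number as the shape (circle 1, square 2, triangle 3). Ctrl replicate 1, at 5.26, sits beside the NICeCA libraries on the horizontal axis, where its Lama4 and Nid2 are within the NICeCA range and its Lama5 and Hspg2 are above it.

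**Figure D3:**
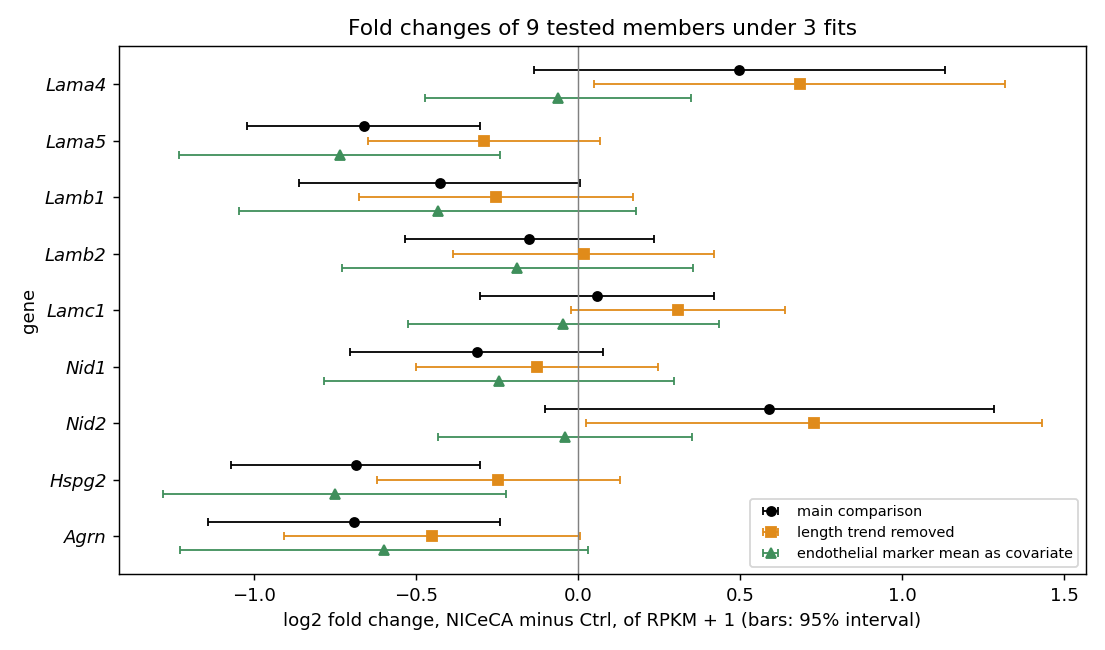
Log2 fold change, NICeCA minus Ctrl, of the 9 tested genes on the log2(RPKM + 1) scale with unadjusted intervals at 95% from limma, for the comparison as reported (black), with the length trend removed (orange) and with the endothelial marker mean as a covariate (green). In black, Hspg2 at -0.69, Lama5 at -0.66 and Agrn at -0.69 have intervals under 0, of which the first pair is called after adjustment, and the other 6 intervals include 0. Green puts Lama4 and Nid2 near 0, and orange puts Hspg2 and Lama5 nearer to 0.

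Ratios of genes with the same role within a library do not depend on how libraries are scaled to each other. The RPKM of Lama4 per RPKM of Lama5 was 0.856, 0.371 and 0.605 in Ctrl and 1.28, 1.42 and 1.46 in NICeCA. Lama5 thus had the higher RPKM in every Ctrl library and Lama4 in every NICeCA library. The ratio of geometric means was 2.40-fold, a log2 difference of 1.26, with an exact two-sided permutation p of 0.1, the smallest that 3 libraries against 3 allow, and 0.4 after Benjamini-Hochberg adjustment over 4 ratios. The ratio in Ctrl replicate 1 was the highest of the Ctrl ratios and still below all NICeCA ratios.

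Nid1 exceeded Nid2 in every library, by 2.36, 7.36 and 5.65 times in Ctrl and by 2.31, 2.14 and 2.58 times in NICeCA. The NICeCA ratios were close to each other and Ctrl replicate 1 fell among them, while the other Ctrl ratios were far above. The log2 difference was -0.98 with an exact two-sided permutation p of 0.2 (0.4 adjusted). Lamb1 per Lamb2 was 2.21, 2.11 and 2.97 in Ctrl and 1.89, 1.63 and 2.50 in NICeCA, a log2 difference of -0.28 with an exact permutation p of 0.4 (0.533 adjusted). Hspg2 per Agrn was 4.65, 3.55 and 4.20 in Ctrl and 4.32, 4.53 and 4.02 in NICeCA, a log2 difference of 0.06 with an exact permutation p of 0.7 (0.7 adjusted). The NICeCA values of Hspg2 per Agrn lay inside the Ctrl range.

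**Figure D4:**
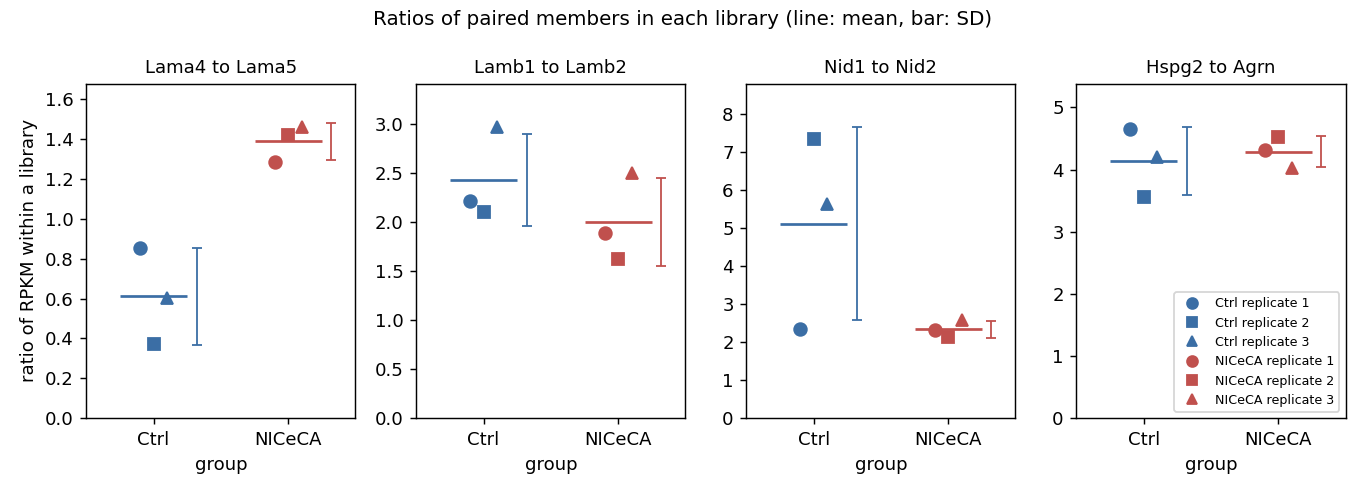
Ratio of RPKM of same-role genes in each library on linear axes that start at 0, with group means and SD (n = 3 each). Lama4 per Lama5 is 0.371 to 0.856 in Ctrl and 1.28 to 1.46 in NICeCA, without overlap, and the other ratios overlap.

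Set against all 5 α chains in the table, Lama4 made up 44.3, 26.4 and 36.4% of the summed α chain RPKM in Ctrl and 51.9, 54.3 and 55.7% in NICeCA, and Lama5 51.8, 71.2 and 60.1% and 40.5, 38.1 and 38.2%. Lama3, the α chain of epithelial laminins, took 1.71 to 3.17% in Ctrl and 4.69 to 6.61% in NICeCA. Lama2 took 0.604 to 1.26% and Lama1 0.0641 to 0.359% over the 6 libraries. Lamb1 took 61.5 to 74.6% of the summed β chains and Lamc1 98.3 to 99.0% of the summed γ chains, so the transcripts were nearly all those of laminins built on γ1. The summed α chains were 33.1, 24.7 and 22.1 RPKM in Ctrl and 20.9, 24.8 and 29.6 RPKM in NICeCA, overlapping between groups. The summed β chains per summed γ chains were 1.75, 2.07 and 1.70 in Ctrl and 1.40, 1.35 and 1.39 in NICeCA. That ratio, which did not overlap between groups, was looked at after its values were seen and has no test.

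Across the 6 libraries, the closest pair of genes was Lama5 and Hspg2. The likeness of a pair was measured as the root mean square difference of log2(RPKM + 1) after each gene was centred on its own mean, which was 0.0337 for this pair. Of the 12319 other genes tested, none lay nearer to Hspg2 than Lama5, and 1 lay nearer to Lama5 than Hspg2. The pairs ranked here were picked after their values in these libraries were seen. Their likeness was not measured with the length trend removed. Hspg2 per Lama5 stayed between 3.08 and 3.27 in all 6 libraries. The next pair was Lama4 and Nid2 (0.0952), with Nid2 per Lama4 at 1.00, 0.855 and 0.863 in Ctrl and 1.05, 0.966 and 0.914 in NICeCA. In that pair, 4 genes lay nearer to Lama4 and 3 nearer to Nid2. Lamb1 and Nid1 followed (0.109, with 14 genes nearer to Lamb1 and 134 nearer to Nid1), and Agrn lay nearest to Hspg2 (0.110, with 174 genes nearer to Agrn and 92 nearer to Hspg2). Lamb2 and Lamc1 had no near neighbour in the set (0.229 to Lamc1 and 0.220 to Nid1). Agrn and Nid2 were the least alike (0.807). Outside the set, genes near to the mean profile of Lama4, Lamb1 and Lamc1, the chains of an α4 laminin, included Ptp4a3 (0.0625), Chst1 (0.0875), Sh2d5 (0.0894) and Pik3c2b (0.0920). The chains did not share a profile, as Ctrl replicate 2 was the lowest library for Lama4 (-0.69 centred) and the highest for Lamb1 (0.28). Nearness to their mean is thus not nearness to each chain.

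Long genes had lower fold changes than short ones in this table. The median log2 fold change was 0.16 for 1282 genes with models under 1000 bases, -0.06 for 4789 genes of 2000 to 4000 bases and -0.28 for 1283 genes over 6000 bases. Hspg2 is longer than 99.6% and Lama5 longer than 99.1% of the tested genes. A smooth curve through all genes stood at -0.47 at the length of Hspg2, -0.40 at that of Lama5 and -0.27 at that of Agrn. That curve was taken off in each library and the library's mean over all genes was kept. The log2 fold changes were then -0.25 for Hspg2, -0.29 for Lama5 and -0.45 for Agrn, and their adjusted p values in limma were 0.321, 0.235 and 0.166. The called genes thus lost their calls, and no gene of the set was called in that fit. Lama4 and Nid2 had log2 fold changes of 0.68 and 0.73 there, with adjusted p values of 0.139 and 0.150 in limma. The part of length in the lower values of Hspg2 and Lama5 was not tested beyond this fit. The Lama4 per Lama5 ratio also compares models of unequal length, 6046 and 11388 bases, and its log2 difference was 0.97 with the length trend removed, in place of 1.26.

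**Figure D5:**
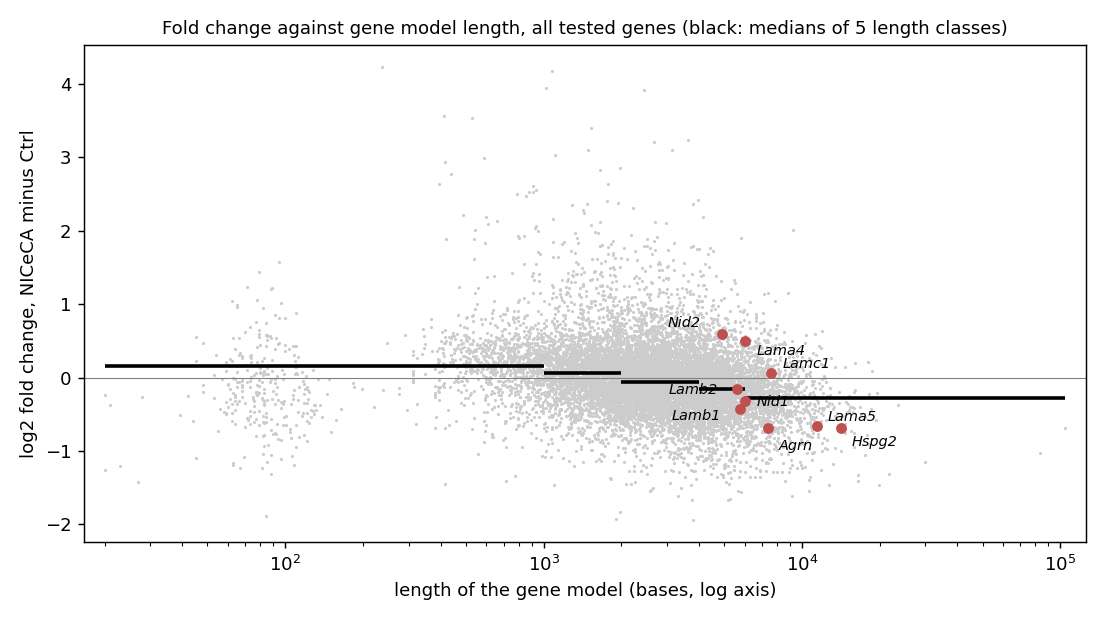
Log2 fold change, NICeCA minus Ctrl, of all 12320 tested genes (grey) against the length of the gene model on a log axis, with the 9 tested members in red. Black bars give the median of 5 length classes, from 0.16 under 1000 bases to -0.28 over 6000 bases. Hspg2, Lama5, Agrn, Lamb1 and Nid1 lie below the bar of their class, Lamb2 on it, and Lama4, Nid2 and Lamc1 above theirs.

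Counts of calls among partners of these proteins stand beside 13.6% of all genes called (5.88% higher, 7.68% lower), and counts without overlap beside 40.9%. Calls of partners, here and in the next paragraphs, come from the comparison as reported and were not followed through the alternatives. Over all genes, 26 were called higher and 1 lower without NICeCA replicate 2, and none with the endothelial marker covariate. Of the 5 laminin chains outside the set, only Lama3 passed the filter, at 1.05, 0.422 and 0.528 RPKM in Ctrl and 1.38, 1.60 and 1.39 RPKM in NICeCA, without overlap and with an adjusted p of 0.063 in limma. None of the 4 tested basement membrane collagens of 8 was called, and their median log2 fold change was 0.39. Col4a1, the main collagen IV chain of vessels, read 265, 123 and 122 RPKM in Ctrl and 184, 222 and 272 RPKM in NICeCA (log2 fold change 0.49, adjusted p 0.285 in limma). Ctrl replicate 1 was as high as the highest NICeCA library and the other Ctrl libraries were lower than all, the arrangement seen for Lama4 and Nid2. Col4a2 had a log2 fold change of 0.42 (adjusted p 0.326 in limma), Col18a1 0.35 (0.192) and Col15a1 -0.04 (0.939). Of 18 other basement membrane proteins, 9 were tested, with Ntn4, a netrin that binds laminin γ chains, called higher (0.812 to 1.16 RPKM against 1.92 to 3.75 RPKM) and Matn2, an adaptor protein of the matrix, called lower (8.92 to 14.0 RPKM against 4.36 to 7.33 RPKM). The log2 fold changes were 0.86 and -0.83, with adjusted p values of 0.037 and 0.041 in limma, and that of Egfl7 was 0.56 (0.234).

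Among 15 tested receptors of laminin, nidogen, perlecan and agrin, 2 were called higher and none lower, with a median log2 fold change of 0.29. Itga1, the α subunit of a collagen and laminin integrin, rose, with 4.12 to 8.30 RPKM in Ctrl against 11.5 to 14.5 RPKM in NICeCA (log2 fold change 0.92, adjusted p 0.042 in limma). Sdc1, a cell surface heparan sulfate proteoglycan, rose, with 17.2 to 36.6 RPKM against 46.3 to 62.5 RPKM (log2 fold change 0.96, adjusted p 0.048 in limma). Itga3 was at 10.2 to 13.1 RPKM throughout (log2 fold change 0.09).

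Of 19 tested genes for heparan sulfate synthesis and trimming, the chains that perlecan and agrin carry, 1 was called higher and 1 lower, with a median log2 fold change of -0.24. Sulf1, an extracellular sulfatase that trims the chains, rose, with 1.29 to 2.22 RPKM in Ctrl against 3.68 to 5.82 RPKM in NICeCA (log2 fold change 1.05, adjusted p 0.022 in limma). Extl3, which starts the heparan sulfate chain, fell, with 21.0 to 23.0 RPKM against 13.1 to 15.3 RPKM (log2 fold change -0.61, adjusted p 0.025 in limma). B3gat3 had a log2 fold change of -0.00.

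Matriglycan is the sugar polymer on dystroglycan to which laminin, perlecan and agrin bind. Of 12 listed genes for its synthesis, Pomgnt2, Pomk and B4gat1 had no row under these symbols and Ispd lay under the filter. Of the 8 tested, Large, the polymerase, was called lower (5.70 to 9.25 RPKM against 2.64 to 4.46 RPKM, log2 fold change -0.89, adjusted p 0.038 in limma), and none was called higher. In 7 of the 8 the Ctrl and NICeCA values did not overlap with NICeCA lower, and in the eighth, Tmem5 at 0.13, with NICeCA higher, while over all genes 24.4% did not overlap with NICeCA lower and 16.5% with NICeCA higher. The median was -0.33. These counts are without the length trend removed, and the list was chosen with earlier results of these data known. Of 12 endoplasmic reticulum chaperones that fold secreted proteins such as laminin chains, 4 were called higher, against 5.88% of all genes, and none lower, with a median of 0.41. Hspa5 rose, with 175 to 233 RPKM in Ctrl against 341 to 368 RPKM in NICeCA, and so did Pdia4, with 40.0 to 55.5 RPKM against 76.4 to 102 RPKM, while Hyou1 had a log2 fold change of -0.09. Among the laminin chains themselves Lama5 fell, and Lama4, Lamb1, Lamb2 and Lamc1 were not called.

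The table also holds FANTOM3 transcript models, 14 of which lie over these genes. A FANTOM3 model that spans nearly all of Nid2 on the same strand (D130062P20) read 14.8, 5.61 and 6.95 RPKM in Ctrl and 11.5, 13.1 and 15.2 RPKM in NICeCA, close to Nid2 itself, and 1 over Nid1 (C430046P06) read 36.3, 42.9 and 38.1 RPKM and 26.8, 26.5 and 39.2 RPKM, close to Nid1. These models cover the same bases as the genes they overlie and are no separate measurement. A model inside Lamb1 (F930108N11, same strand) read 11.3, 12.5 and 11.5 RPKM in Ctrl and 6.56, 7.08 and 10.7 RPKM in NICeCA, without overlap, and another at its start (D130003D08, same strand) read 10.4, 12.6 and 10.3 RPKM and 5.89, 5.65 and 11.2 RPKM, with overlap. A model on the opposite strand across the start of Lama4 (B130042I06) read 8.55, 4.14 and 3.57 RPKM in Ctrl and 5.74, 6.56 and 8.94 RPKM in NICeCA. The sources used here do not say whether strand entered the counting, so its reads and those of Lama4 where they overlap cannot be told apart. The same holds for the overlap of Nid2 with 2700060E02Rik on the minus strand, which read 22.6 to 24.5 RPKM in Ctrl and 25.4 to 34.3 RPKM in NICeCA.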

How the data were processed

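RNA from CD31-bead TECs of LLC tumors was sequenced as 6 libraries, assigned to 3 Ctrl and 3 NICeCA by sample titles and matched to table columns by library label. The authors deposited RPKM values per gene model, computed over 56826 rows (23473 RefSeq, the rest FANTOM3). The submitters' processing notes name TopHat2 and mm9, but 99.3% of symbol-matched RefSeq rows overlap their GRCm38 position, which was used. Counting tool, strand setting and treatment of shared reads: not given in the sources used here. Whole reads were recovered from the RPKM values and model lengths (tolerance 0.05 reads).

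From the deposited values, log2(RPKM + 1) of RefSeq rows with a mean of at least 1 RPKM was compared by lmFit and a trended eBayes (limma 3.58.1, R 4.3.3), two-sided, with Benjamini-Hochberg adjustment and calls at an adjusted p under 0.05. Fold changes on that scale understate the change of low genes. Ratios were tested by exact two-sided permutation over 20 assignments (scipy 1.17.1). FANTOM3 rows were left out of tests. The depth of 27793301 to 30769916 reads limits precision for Lama2 alone (62 to 135 reads), since the other members had at least 1086 reads a library. The fit was tested on simulated data: 64.6% of 99 genes changed 2-fold and 90.9% of 99 genes changed 4-fold were recovered among 12736 genes. Alternatives were a replicate block, leaving out each library, quantile and trimmed mean scaling, other filters, pseudocount, trend and threshold, a length correction, an endothelial covariate, and voom on the recovered reads. Members and lists were chosen with earlier results of these data known. All members were named. From each other list the pair with the smallest and the 1 with the largest p were named, plus Col4a1 and Col4a2, and the genes most like the members by centred profile. A pair of genes that this rule names is not reported here. Protein sequences were not analysed here.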

Additional observations from a re-analysis of the deposited data

How the results depend on the processing

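Deviations of same-numbered libraries correlated at 0.12, -0.34 and -0.18, and those of libraries with unlike numbers at -0.32 to 0.44. These correlations cannot show whether the mice were paired. With a replicate block, 0 members were called lower in place of 2, and 327 genes were called higher and 209 lower in place of 725 and 946. Members called lower numbered 0 to 4 when 1 library was left out (4 without NICeCA replicate 3, which added Lamb1 and Agrn), members called higher 0 to 1 (Nid2, without Ctrl replicate 1), all genes called higher 26 to 913 and lower 1 to 832, the lowest without NICeCA replicate 2. Quantile normalization left 1 member (Hspg2) with 434 genes higher and 319 lower, and trimmed mean scaling 1 member (Lama5). No member was called without the filter (260 higher, 105 lower), with the length trend removed (383 higher, 178 lower) or with the endothelial marker covariate (0 and 0). A mean of at least 5 RPKM gave 579 lower genes, and an adjusted p under 0.1 gave 1346 higher and 1992 lower, with 3 members. Over 16 alternatives, Lama5 was called in 7 (adjusted p 0.026 to 0.235 in limma), Hspg2 in 7 (0.028 to 0.321) and Agrn in 3 (0.044 to 0.273), and these 3 genes had negative fold changes in every one. Signs turned for genes that were not called: with the endothelial covariate for Lama4 (-0.0605), Nid2 (-0.0393) and Lamc1 (-0.0446), with the length trend removed for Lamb2 (0.0178), and with quantile normalization for Lamc1 (-0.0717). Without single libraries Lamc1 ran from -0.0974 to 0.15 and the log2 ratio of Hspg2 to Agrn from -0.0428 to 0.15. The log2 ratio of Lama4 to Lama5 stayed between 0.95 and 1.55 over 9 alternatives, none of which was the endothelial covariate. With that covariate the log2 fold changes were -0.0605 for Lama4 and -0.74 for Lama5. The causes of these shifts were not tested.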
